A study of Mus musculus with 12 samples.

Results

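Chemokine ligands and receptors of the CC and CXC families were examined in RNA-seq profiles of microglia, which are macrophages that reside in brain tissue, sorted from mouse midbrain. The genes were taken by name: every symbol made of Ccl, Cxcl, Ccr or Cxcr and a number, with or without a final a or b. This gave 39 of the 21125 gene symbols in the deposited table, namely 15 CC ligands, 9 CXC ligands, 9 CC receptors and 6 CXC receptors. RefSeq lists 52 mouse symbols of this form, and the other 13 were not analysed here. Control mice, written WT, are labelled Ppargc1a FF. Deficient mice, written KO, are labelled Ppargc1a FF CreER, and the design text places their Ppargc1a deficiency in microglia. The labels do not name the promoter that drives CreER. Both genotypes were given either PBS or MPTP, which is toxic to dopaminergic neurons, and all samples, controls included, are labelled as 6 weeks after tamoxifen. Whether the samples of a group are different animals is stated nowhere in the labels. The p-values below therefore cover only variation among these profiles, and that variation may be technical.

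Each of the 4 groups has 3 labelled samples, but the table does not hold 12 separate measurements. The third column of every group was the mean of its first and second multiplied by 0.99 with 0.1 added, WT MPTP 2 equalled 1.02 times WT MPTP 1, and KO MPTP 1 equalled 1.02 times KO PBS 2, to rounding, in all but 49 of 67355 rows. This leaves 6 separate profiles. They are numbers 1 and 2 of WT PBS, number 1 of WT MPTP, numbers 1 and 2 of KO PBS, and number 2 of KO MPTP. KO PBS 2 stands under both KO labels, so its treatment is unknown, and it is called the shared KO profile here. The 49 rows off these relations belong to 42 genes, Ccl2 among them. Levels are in FPKM, which scales fragment counts for the length of the transcript and the size of the library. Depth is unknown, and the profiles summed to between 388861 and 425554 FPKM.

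Ppargc1a was at 5.70 and 6.21 FPKM in WT PBS, 2.72 in WT MPTP and between 0.12 and 0.42 in the 3 KO profiles, and it is itself one of the genes with rows off the relations. Of the macrophage and microglia markers, Cd68, Tyrobp and Csf1r averaged 479, 433 and 117 FPKM, whereas P2ry12, a marker of resting microglia, averaged 0.192. Of the other markers of resident microglia, Tmem119 averaged 2.02, Cx3cr1 0.0517 and Siglech 0.025 FPKM, and Sall1 was listed at 0. General macrophage markers were thus high, and P2ry12, Cx3cr1, Siglech and Sall1 were at or near 0. Lymphocyte markers summed to between 0.55 and 0.75 FPKM and neuronal markers to at most 0.03, and of the 5 endothelial and mural markers in the table, Flt1 averaged 86.9, Pecam1 0.122, Kdr 0.0783 and Pdgfrb 0.0133, with Cdh5 at 0.

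Chemokines are small secreted proteins that steer the migration of leukocytes. They act through receptors on the cell surface that couple to inhibitory G proteins. CC and CXC ligands are named for the spacing of conserved cysteines near the amino end, and most bind receptors of their own family. Brain macrophages release several CC ligands during inflammation and injury, and many of these genes respond to NF-kB and other inducible transcription factors. In a bulk sample, fewer cells that express a gene and less RNA per cell cannot be told apart.

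Promoter sequences are shown for the pair of ligands with the highest levels, Ccl3 and Ccl9, and for Cxcl2 and Cxcl10, whose levels were near 0. The last 2 were chosen after their values were seen, as textbook NF-kB targets that were nearly silent here. Each line gives the 250 bases before the annotated start, 5′ to 3′ on the gene's strand, from RefSeq on GRCm38.p6, which is not the build of the deposited table. Capitals mark letters that match a searched motif on either strand.

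Ccl3 (chr11:83649379-83649628, minus strand): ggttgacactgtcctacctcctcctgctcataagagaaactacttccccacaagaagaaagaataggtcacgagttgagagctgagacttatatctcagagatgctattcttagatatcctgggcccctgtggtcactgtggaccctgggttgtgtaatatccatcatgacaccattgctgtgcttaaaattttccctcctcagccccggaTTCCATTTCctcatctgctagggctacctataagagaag
Ccl9 (chr11:83578637-83578886, minus strand): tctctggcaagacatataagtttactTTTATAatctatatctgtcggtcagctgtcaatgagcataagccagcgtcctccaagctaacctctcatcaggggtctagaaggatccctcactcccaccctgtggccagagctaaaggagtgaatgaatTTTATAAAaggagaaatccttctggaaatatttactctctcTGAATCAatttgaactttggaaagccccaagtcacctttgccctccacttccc
Cxcl2 (chr5:90903649-90903898, plus strand): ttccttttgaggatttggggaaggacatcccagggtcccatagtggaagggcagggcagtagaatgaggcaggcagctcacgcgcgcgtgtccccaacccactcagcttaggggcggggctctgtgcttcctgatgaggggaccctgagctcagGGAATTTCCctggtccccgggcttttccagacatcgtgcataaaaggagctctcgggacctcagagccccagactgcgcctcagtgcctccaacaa
Cxcl10 (chr5:92348890-92349139, minus strand): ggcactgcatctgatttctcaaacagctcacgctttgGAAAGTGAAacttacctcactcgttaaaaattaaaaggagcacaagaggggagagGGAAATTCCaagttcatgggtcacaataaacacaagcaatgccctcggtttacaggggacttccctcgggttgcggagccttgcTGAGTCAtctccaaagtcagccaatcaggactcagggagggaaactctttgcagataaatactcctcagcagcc

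5 motifs were searched on both strands, with N for any base. The letters of the TATA box were TATAAA. Those of NF-kB were GGANTTTCC and those of AP-1 were TGANTCA. The letters searched for C/EBP proteins were TTGCNNAA, and the core of the interferon response element was GAAANNGAA. Windows ran from 250 bases before to 50 bases after the start. Windows were at hand for 25 of the 39 genes, 29 windows in all, including 10 windows of 9 genes that passed the filter described below. There was none for Ccl2, Ccl7, Ccl4, Ccl24 and Ccr10. The Ccl3 window matched only the interferon element core, 39 bases before the start, and the Ccl9 window matched TATAAA with its first base 224, 94 and 92 bases before the start and the AP-1 letters 53 bases before it. The TTTATAAA run of Ccl9 holds an overlapping TATAAA on each strand. Cxcl2 matched the NF-kB letters 96 bases before the start, and Cxcl10 matched the interferon element, NF-kB and AP-1 letters 213, 158 and 74 bases before it.

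The NF-kB letters stood in 4 of the 29 windows (Ccr3, Cxcl10, Cxcl2 and Cxcl3), against 1.25% of all 32851 RefSeq windows. All 4 genes averaged under 0.1 FPKM, as did 18 of all 39 genes. Of the 10 windows of genes that passed the filter, 0 held these letters, and 10 windows are too few to read against 1.25%. TATAAA stood in 4 of those 10 windows and 13.6% of all windows, AP-1 letters in 1 and 7.81%, C/EBP letters in 0 and 10.8%, and the interferon core in 2 and 8.56%. A match is a description of letters, not a binding site.

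Genes were tested if 3 or more of the 6 separate profiles showed 1 FPKM or more. This held for 10634 genes and for 14 of the 39: 9 CC ligands, 2 CC receptors, 3 CXC receptors and 0 CXC ligands. Of these, 13 reached 1 FPKM in all 6 profiles, and Ccr10 reached it in 5. The other 25 stayed under the filter. In all, 18 genes averaged under 0.1 FPKM, and Cxcl9 and Cxcl11, ligands of Cxcr3, were listed at 0 in every profile.

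**Figure D1:**
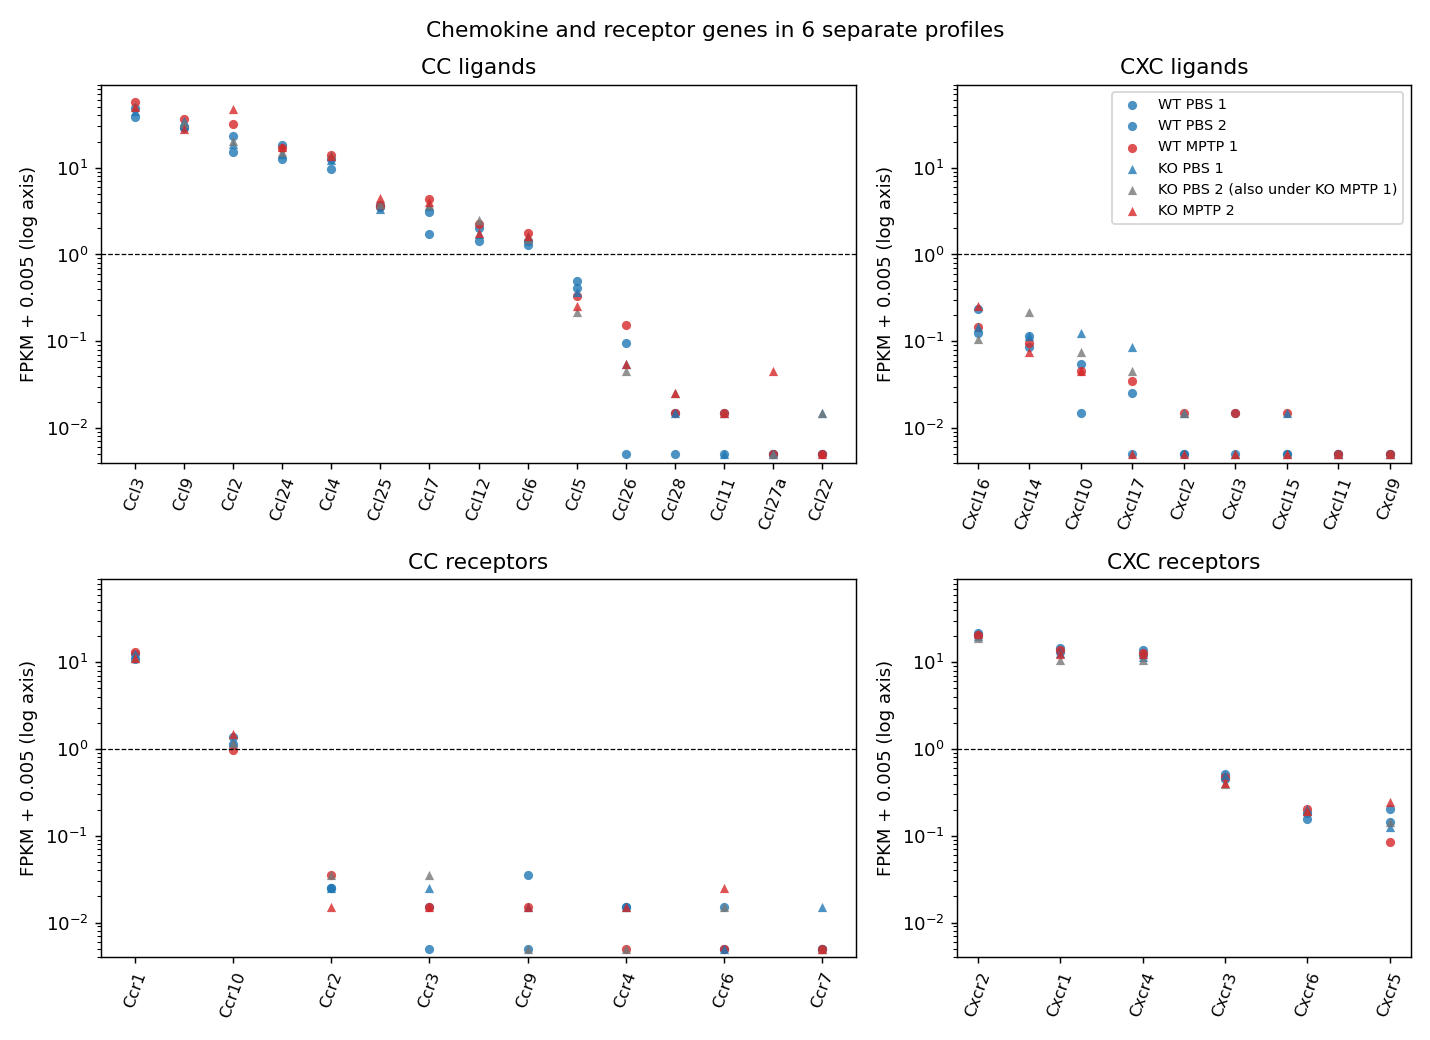
Level of 38 of the 39 genes in the 6 separate profiles, by family. The vertical axis is FPKM plus 0.005 on a log scale, each point is 1 profile, circles are WT and triangles KO, and the dashed line is at 1 FPKM. 9 CC ligands, 2 CC receptors and 3 CXC receptors lie at or above the line, apart from 1 profile of Ccr10, and all 9 CXC ligands lie under it.

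Ccl3, a ligand of Ccr1, had the highest level. It stood at 38.4 and 48.2 FPKM in WT PBS, 57.4 in WT MPTP, 45.2 in KO PBS, 51.7 in the shared KO profile and 50.4 in KO MPTP. WT PBS 1 was the lowest and WT MPTP the highest profile. Its mean of 48.6 ± 6.43 FPKM (SD, n = 6 profiles) exceeded the level of 94.3% of all gene symbols. Ccl4, its neighbour in the genome and a related inflammatory ligand, was at 9.78 and 12.6 FPKM in WT PBS, 13.98 in WT MPTP, 12.2 in KO PBS, 13.97 in the shared KO profile and 13.7 in KO MPTP. Again WT PBS 1 was the lowest. The RefSeq models of Ccl3 and Ccl4 overlap, so how reads were divided between them is uncertain.

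Ccl9 and Ccl6 are ligands of Ccr1 and lie in the same run of neighbouring genes as Ccl5, Ccl3 and Ccl4. Ccl9 was at 29.8 and 28.5 FPKM in WT PBS, 36.8 in WT MPTP, 34.2 in KO PBS, 32.8 in the shared KO profile and 28.1 in KO MPTP. Its WT MPTP profile was the highest, and its KO MPTP profile was the lowest. Ccl6 was lower, at 1.41 and 1.29 FPKM in WT PBS, 1.75 in WT MPTP, 1.57 in KO PBS, 1.5 in the shared KO profile and 1.63 in KO MPTP.

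Ccl2, Ccl7 and Ccl12 are ligands of Ccr2 that attract monocytes, and lie in a second run of neighbours. Ccl2 was at 15.2 and 23.4 FPKM in WT PBS, 31.7 in WT MPTP, 18.5 in KO PBS, 20.1 in the shared KO profile and 47.4 in KO MPTP. Both MPTP profiles were above all the others, and the share of all genes with this order was not counted. Ccl2 varied most of the 14 genes, with a coefficient of variation of 45.6% over the 6 profiles. Ccl7 was at 1.70 and 3.08 FPKM in WT PBS, 4.32 in WT MPTP, 3.61 in KO PBS, 3.75 in the shared KO profile and 4.01 in KO MPTP. Its 2 WT PBS profiles were the lowest, and its coefficient of variation was 27.4%. Ccl12 was at 1.41 and 1.99 FPKM in WT PBS, 2.27 in WT MPTP, 1.74 in KO PBS, 2.47 in the shared KO profile and 1.76 in KO MPTP. Ccr2, the receptor of these ligands, which was named after its values were seen, averaged 0.0217 FPKM.

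Ccl24, a ligand of Ccr3 that attracts eosinophils, was at 12.7 and 18.3 FPKM in WT PBS, 16.8 in WT MPTP, 14.4 in KO PBS, 15.4 in the shared KO profile and 17.2 in KO MPTP. Its 2 WT PBS profiles were the lowest and the highest. Ccl25, a ligand of Ccr9 known from thymus and gut, is the sum of 8 rows. It was at 3.72 and 3.56 FPKM in WT PBS, 3.60 in WT MPTP, 3.33 in KO PBS, 3.82 in the shared KO profile and 4.42 in KO MPTP, the highest.

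Among receptors, Cxcr2, which binds neutrophil-attracting CXC ligands, had the highest level and the smallest variation of the 14 genes. It was at 21.6 and 20.6 FPKM in WT PBS, 20.7 in WT MPTP, 20.0 in KO PBS, 18.8 in the shared KO profile and 20.9 in KO MPTP, a coefficient of variation of 4.66%. Its ligands Cxcl2 and Cxcl3 averaged 0.0050 and 0.0033 FPKM in the same profiles. Cxcr1, its genomic neighbour and a receptor of related ligands, was at 14.7 and 13.3 FPKM in WT PBS, 13.7 in WT MPTP, 12.6 in KO PBS, 10.6 in the shared KO profile and 12.6 in KO MPTP. All 3 KO profiles of Cxcr1 were below all 3 WT profiles. Cxcr4, the receptor of Cxcl12, was at 13.98 and 12.24 FPKM in WT PBS, 12.7 in WT MPTP, 11.6 in KO PBS, 10.7 in the shared KO profile and 12.4 in KO MPTP, and its WT and KO values overlapped.

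Ccr1, the receptor shared by Ccl3, Ccl6 and Ccl9, was at 12.5 and 10.9 FPKM in WT PBS, 13.2 in WT MPTP, 12.3 in KO PBS, 11.1 in the shared KO profile and 11.2 in KO MPTP. Ccr10, a receptor of skin and mucosal ligands, was at 1.37 and 1.13 FPKM in WT PBS, 0.98 in WT MPTP, 1.19 in KO PBS, 1.18 in the shared KO profile and 1.5 in KO MPTP. WT MPTP was its lowest and KO MPTP its highest profile. The RefSeq model of Ccr10 overlaps Cntnap1, and whether counting used strand is not given in the sources used here. Cxcr2, Cxcr1 and Cxcr4 are best known from granulocytes and other blood leukocytes. Of the 8 granulocyte markers listed, 6 were in the table: S100a8 averaged 4.52 FPKM, the others summed to between 0.46 and 0.78, and Ly6g was at 0 except for 0.01 in WT MPTP. The part of granulocytes in these receptor levels was not tested otherwise.

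In the order of mean levels (Ccl3, Ccl9, Ccl2, Cxcr2, Ccl24, Cxcr1, Ccl4, Cxcr4, Ccr1, Ccl25, Ccl7, Ccl12, Ccl6, Ccr10), the ranges of neighbours over the 6 profiles were apart only for Ccl3 and Ccl9, for Cxcr2 and Ccl24, and for Ccr1 and Ccl25. Among the genes named here that stayed under the filter, the highest means were those of Cxcr3 (0.453 FPKM), Ccl5 (0.342), Cxcr6 (0.185) and Cxcl16 (0.163).

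**Figure D2:**
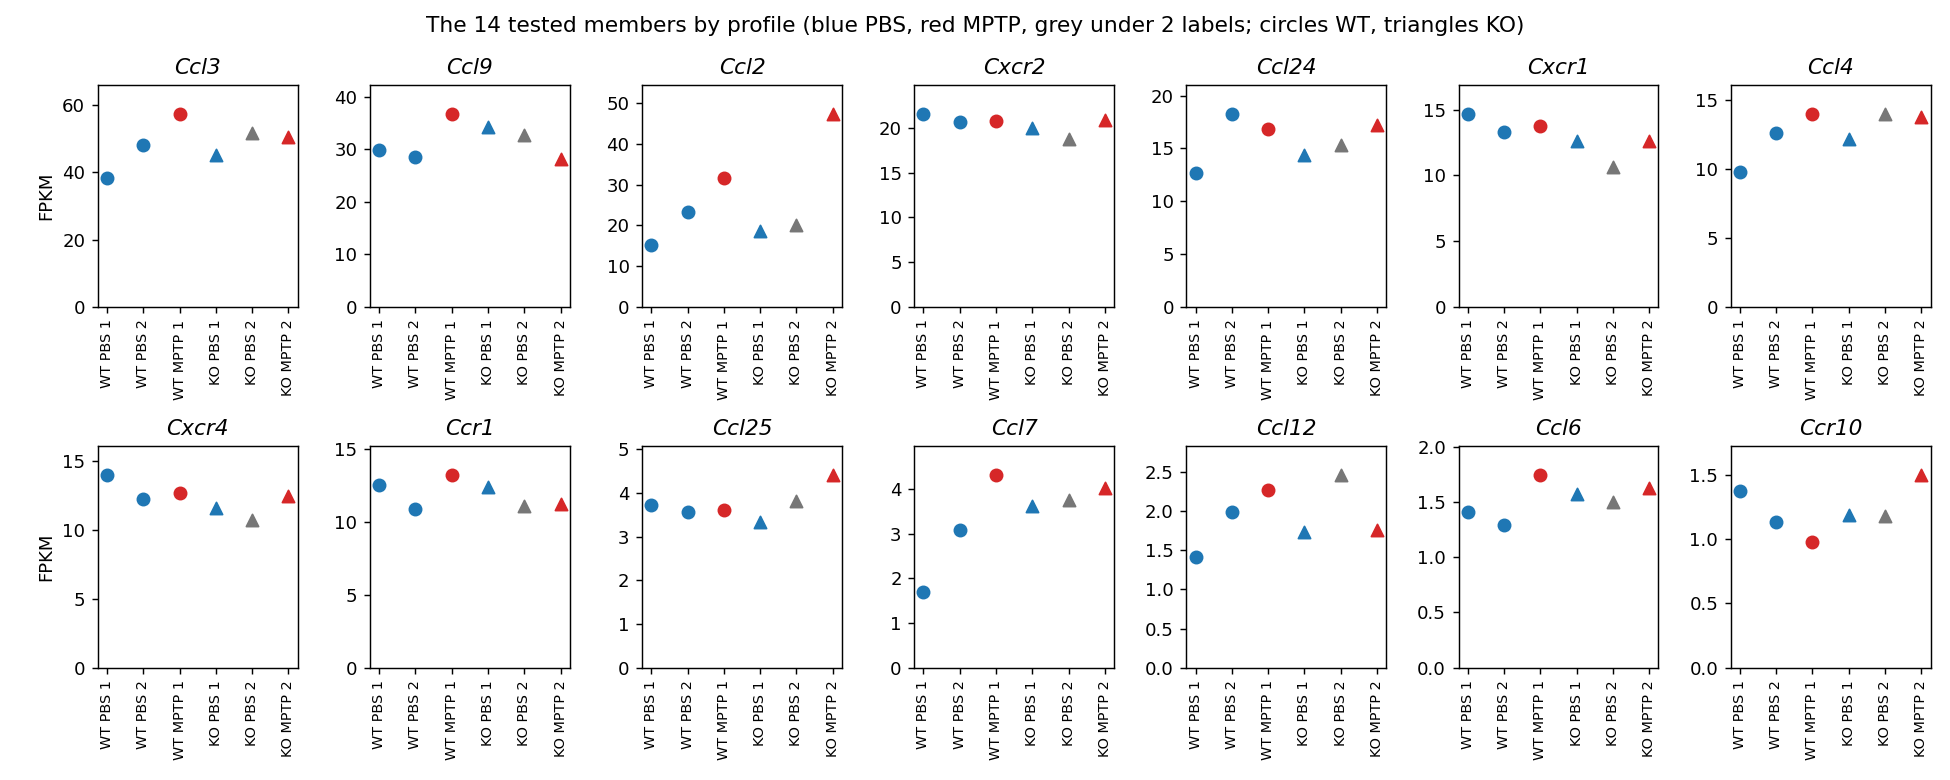
FPKM of the 14 tested genes in the 6 separate profiles, each panel with its own linear axis from 0. Each point is 1 profile, with circles for WT, triangles for KO, blue for PBS, red for MPTP and grey for the shared KO profile. Both MPTP profiles of Ccl2 (31.7 and 47.4 FPKM) lie above its other 4, an order not counted over all genes, and Cxcr2 stays between 18.8 and 21.6.

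In WT microglia, the study's design asks what MPTP does to expression. No chemokine gene passed the test. WT MPTP was above both WT PBS profiles for 8 of the 14 genes (Ccl2, Ccl3, Ccl4, Ccl6, Ccl7, Ccl9, Ccl12 and Ccr1), and the same was true of 50.1% of all genes tested. By family, 8 of 9 CC ligands and 0 of 3 CXC receptors had a difference above 0, also under TMM and quantile scaling. The share of all genes with a difference above 0 was not counted, and their median, 0.04, was itself above 0. Without WT PBS 1, and with the shared KO profile counted as KO PBS, 8 of 9 CC ligands were still above 0, but so were 3 of 3 CXC receptors, with a median of 0.05. The median difference of the 14 genes was 0.20 on the log2(FPKM + 1) scale, against 0.04 over all genes. Every difference below is on that scale, where changes of weakly expressed genes appear smaller than they are.

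The largest difference for MPTP in WT was that of Ccl2, 0.72 ± 0.18 (SE; adjusted p = 0.566, limma with Benjamini-Hochberg adjustment over 10634 genes). Ccl7 followed with 0.68 ± 0.19 (adjusted p = 0.849) and Ccl3 with 0.41 ± 0.12 (adjusted p = 0.932). The 2 WT PBS profiles differed by 0.59 for Ccl2, 0.60 for Ccl7 and 0.32 for Ccl3, with WT PBS 2 the higher. The lowest differences were −0.18 for Ccr10, −0.04 for Cxcr4 and −0.02 for Cxcr2, each with an adjusted p of 1. limma called 0 of the 14, and 7 had an unadjusted p under 0.05, all higher with MPTP. Over all genes, 2.65% had an unadjusted p under 0.05 by limma, and 0.254% were called, 5 higher and 22 lower.

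The spread between the WT PBS profiles bears on this result. The difference with MPTP was larger than the difference between the 2 WT PBS profiles for 6 of the 14 genes (Ccl2, Ccl3, Ccl6, Ccl7, Ccl9 and Ccr10). The margin was wide for Ccl9, which had the lowest adjusted p of the 14 by limma and was not called. Its MPTP difference was 0.33 ± 0.08 (SE), against −0.06 for WT PBS 2 minus WT PBS 1. For Ccl6 these values were 0.23 and −0.07. WT PBS 2 exceeded WT PBS 1 for 6 of the 9 ligands and was below it for 5 of the 5 receptors. WT PBS 1 was the lowest of the 6 profiles for 6 ligands, and WT MPTP the highest for 5. Without WT PBS 2, and with the shared KO profile counted as KO PBS to give the fit its error, 2 genes were called higher, Ccl2 and Ccl7, and without WT PBS 1 none was. The differences without WT PBS 2 and without WT PBS 1 were 1.013 and 0.42 for Ccl2, 0.98 and 0.38 for Ccl7, and 0.57 and 0.25 for Ccl3.

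In KO microglia, Ccl2 was the 1 chemokine gene called for MPTP. It rose from 18.5 FPKM in KO PBS to 47.4 in KO MPTP, a difference of 1.31 ± 0.21 (SE; adjusted p = 0.0349, limma, Benjamini-Hochberg). The comparison sets 1 profile against 1, and its error is borrowed from the WT PBS pair. Of all genes, 0.292% were called, 23 higher and 8 lower. The next largest differences were 0.32 ± 0.11 for Ccl25 (adjusted p = 0.423, limma) and 0.25 ± 0.18 for Ccl24 (adjusted p = 0.655, limma). The lowest were −0.27 ± 0.09 for Ccl9 (adjusted p = 0.403, limma), −0.13 ± 0.12 for Ccr1 and 0.00 for Cxcr1 to 2 decimals.

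The call of Ccl2 depended on the treatment of the data. Alternatives gave differences from 0.71 to 1.36, and the 1.36 came from taking the shared KO profile as KO MPTP at its KO MPTP 1 values. There the main Ccl2 row is off its relation, as given below. The call held in 8 of 14 alternatives, counting that fit and the fit with all 12 columns as libraries, where computed columns act as replicates. It was lost with a pseudocount of 0.1 (adjusted p = 0.074) or 0.5 (adjusted p = 0.0502), without a filter (adjusted p = 0.462), under quantile scaling (adjusted p = 0.603), and with the shared KO profile in place of KO PBS 1 as the KO control (1.198, adjusted p = 0.107, limma throughout). With the shared KO profile placed in KO MPTP, at its KO PBS 2 values, the difference was 0.71, with an adjusted p of 0.886 by limma.

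Ccl2 is also one of the genes with a row off the arithmetic relations. In the column KO MPTP 1 the main Ccl2 row holds 50.1 FPKM, where 1.02 times KO PBS 2 gives 19.9, and its second row follows the relation. The deposited 50.1 is near the 46.2 FPKM of that row in KO MPTP 2. Of the tested genes, 40 have a row off a relation, and they make up 14 of the 31 genes called for MPTP in KO and 18 of the 27 called for MPTP in WT. With such rows left out, Ccl2 fell under the filter and 4 genes were called for MPTP in KO. S100a8, the granulocyte and macrophage alarmin, moved in the same profiles as Ccl2, at 3.75 and 4.35 FPKM in WT PBS, 5.75 in WT MPTP, 3.81 in KO PBS, 3.68 in the shared KO profile and 5.76 in KO MPTP. The other granulocyte markers in the table summed to 0.46 and 0.61 FPKM in WT PBS and 0.55 in WT MPTP, between the WT PBS values. Their sums were 0.61 in KO PBS, 0.64 in the shared KO profile and 0.78 in KO MPTP. S100a8 was not called and also has rows off the relations, and its part in the Ccl2 result was not tested.

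**Figure D3:**
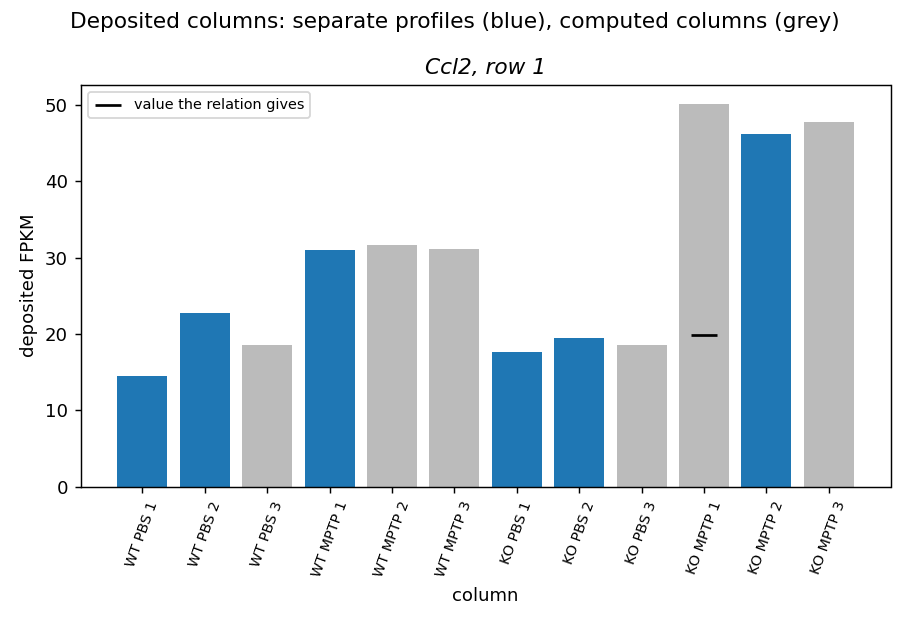
Deposited FPKM of the main Ccl2 row in all 12 columns. Blue bars are separate profiles, grey bars are computed columns, and a black line marks the value the relation gives. In KO MPTP 1 the Ccl2 bar is at 50.1 FPKM against 19.9 from the relation.

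For MPTP in KO, 8 of 9 CC ligands were above 0, near the share of all genes tested, of which 86.5% were higher in KO MPTP than in KO PBS. Under TMM or quantile scaling 6 of 9 ligands were above 0, and for CXC receptors 2 of 3 became 0 of 3. With a replicate block and the shared KO profile as KO PBS, 4 of 9 ligands were above 0, with a median of −0.06 against 0.15, and 3 of 3 CXC receptors. With the shared KO profile in place of KO PBS 1, 5 of 9 ligands and 3 of 3 CXC receptors were above 0. The median over all genes was 0.09 and moved to −0.01 under TMM, a shift of all genes, and the median of the 14 chemokine genes was 0.11 and moved to 0.01. Of the 14, 3 had an unadjusted p under 0.05 by limma (Ccl2, Ccl25 and Ccl9), 2 of them higher, against 9.2% of all genes. Summed over the 9 tested and 6 other CC ligands, levels were 114.7 and 141.3 FPKM in WT PBS, 169.0 in WT MPTP, 135.0 in KO PBS, 145.8 in the shared KO profile and 169.1 in KO MPTP. Without Ccl2 the sums were 99.5, 117.9, 137.4, 116.5, 125.7 and 121.7 FPKM in the same order, so that KO MPTP lay between KO PBS and the shared KO profile.

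Whether the response to MPTP differed by genotype was tested by the interaction, the MPTP difference in KO minus that in WT. No chemokine gene was called, against 0.0752% of all genes (8 genes, all higher). An unadjusted p under 0.05 by limma was found for 3 of the 14 (Ccl9, Ccr10 and Ccl25), against 5.17% of all genes. Ccl9 had the lowest value, −0.60 ± 0.12 (SE; adjusted p = 0.189, limma), made of 0.33 ± 0.08 with MPTP in WT and −0.27 ± 0.09 in KO. It was called in 2 of 15 alternatives, TMM scaling and all 12 columns taken as libraries, with values from −0.68 to −0.46. Ccl7 followed with −0.56 ± 0.29 and Ccr1 with −0.29 ± 0.15, each with an adjusted p of 1 by limma. The highest values were 0.59 ± 0.28 for Ccl2 (adjusted p = 0.968), 0.37 ± 0.16 for Ccr10 (adjusted p = 0.902) and 0.34 ± 0.15 for Ccl25 (adjusted p = 0.941), all by limma. For Ccl2 the alternatives ran from −0.01 to 0.83.

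**Figure D4:**
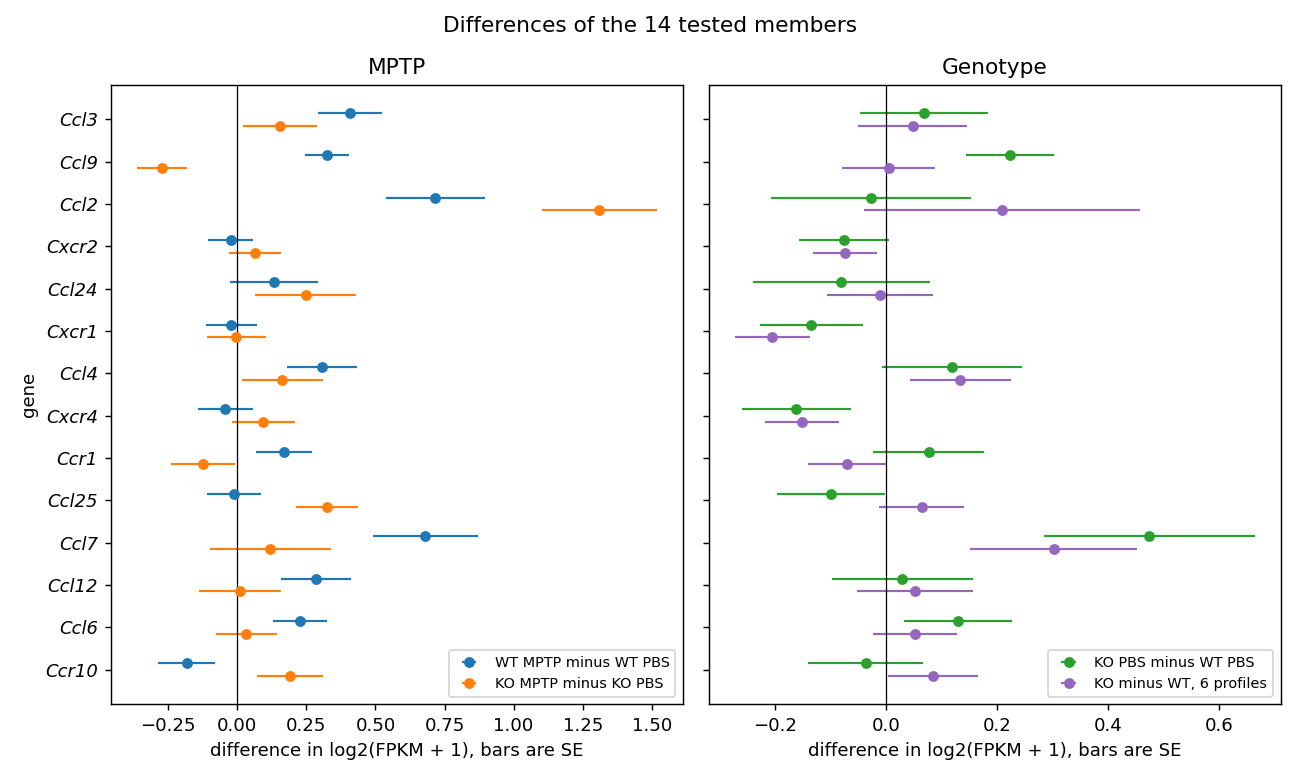
Differences of the 14 tested genes in log2(FPKM + 1), with bars of 1 SE. The left panel shows MPTP minus PBS in WT (blue) and KO (orange), and the right panel KO minus WT under PBS (green) and over the 6 profiles (purple). Ccl2 has the largest MPTP differences (0.72 and 1.31), and Ccl9 lies on opposite sides of 0 in WT and KO.

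Under PBS, no chemokine gene differed by genotype beyond the threshold. limma called 0 of 14, against 0.226% of all genes, 24 lower and 0 higher. An unadjusted p under 0.05 by limma was found for 2 of the 14 (Ccl7 and Ccl9), against 4.42% of all genes. KO PBS minus WT PBS was 0.47 ± 0.19 for Ccl7, 0.22 ± 0.08 for Ccl9 and 0.13 ± 0.10 for Ccl6. At the other end were Cxcr4 with −0.16 ± 0.10, Cxcr1 with −0.13 ± 0.09 and Ccl25 with −0.10 ± 0.10. The adjusted p of each of these 6 was 0.909 (limma). All 3 CXC receptors were below 0, and the median of all genes was −0.06. With the shared KO profile counted as KO PBS, leaving out WT PBS 2 gave 0.79 for Ccl7, the 1 gene then called, and leaving out WT PBS 1 gave 0.20, not called.

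Under MPTP, again with 1 profile against 1, limma called 0 of 14, against 0.103% of all genes, 4 higher and 7 lower. An unadjusted p under 0.05 by limma was found for 3 of the 14 (Ccl9, Ccr10 and Ccl2), against 3.59% of all genes. KO MPTP minus WT MPTP was −0.38 ± 0.09 for Ccl9 (adjusted p = 0.355, limma), −0.24 ± 0.15 for Ccl12 and −0.22 ± 0.12 for Ccr1. It was 0.57 ± 0.21 for Ccl2 (adjusted p = 0.997, limma), 0.34 ± 0.12 for Ccr10 (adjusted p = 0.927, limma) and 0.24 ± 0.11 for Ccl25. For Ccl2 it was −0.03 with the shared KO profile counted as KO MPTP at its KO PBS 2 values. These comparisons share profiles with those for MPTP and for genotype under PBS.

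Over all 6 profiles, 3 WT and 3 KO without regard to treatment, mean levels of the 3 CXC receptors were lower in KO, also under TMM and quantile scaling, but not beyond the threshold. Cxcr1 averaged 13.9 ± 0.718 FPKM in WT and 11.95 ± 1.14 in KO (SD, n = 3 each; exact two-sided permutation p = 0.10, the smallest that 3 against 3 allows). Its difference of −0.20 ± 0.07 was not called across all genes (adjusted p = 0.920, limma). Cxcr1 was the 1 gene of 14 with all KO profiles below all WT profiles, which held for 7.19% of all genes. Cxcr4 averaged 13.0 ± 0.906 and 11.6 ± 0.865 FPKM (SD, n = 3 each; exact permutation p = 0.20), and Cxcr2 21.0 ± 0.514 and 19.9 ± 1.06 (SD, n = 3 each; exact permutation p = 0.30). Of 14 such exact tests, the remaining ones, which include all 9 ligands, gave p from 0.40 to 1.

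The highest differences by genotype were 0.30 ± 0.15 for Ccl7, 0.21 ± 0.25 for Ccl2 and 0.13 ± 0.09 for Ccl4, each with an adjusted p of 0.997 by limma. For Ccl2 the alternatives ran from −0.21 to 0.45. Of the 14 genes limma called 0, against 0.0376% of all genes, 4 lower and 0 higher. An unadjusted p under 0.05 by limma was found for 2 of the 14 (Cxcr1 and Cxcr4), against 3.49% of all genes. Summed over all 6 CXC receptors, 3 of them tested, levels were 51.1 and 46.9 FPKM in WT PBS and 47.9 in WT MPTP. The sums were 44.99 in KO PBS, 40.9 in the shared KO profile and 46.8 in KO MPTP. The summed macrophage markers were also lower in KO profiles, between 1377 and 1493 FPKM, than in WT profiles, between 1506 and 1542, and their part in the receptor levels was not tested.

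The genes that act with chemokines were read from 4 lists. Of 19 other genes listed for chemokine and related ligands and receptors, 11 were in the table and 3 passed the filter. Of these 3, limma called 0 in any comparison. They were Pf4, a platelet and macrophage chemokine, at 191 FPKM on average, Cmklr1, the chemerin receptor, at 11.4, and C5ar1, a complement receptor, at 2.38. Of 25 genes of receptor signalling, 23 were tested and 0 called. Their median difference was 0.07 for MPTP in WT and 0.09 for MPTP in KO, close to the 0.04 and 0.09 of all genes, and Gnb2, a G protein subunit, averaged 219 FPKM. Of 17 genes of chemokine processing and binding, 15 were in the table, 11 were tested and 0 were called. Ctsb, a lysosomal protease, averaged 351 FPKM.

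Of 26 inducers of chemokine transcription, 25 were tested, and 2 were called in at least 1 comparison. Cebpb, a transcription factor of inflammatory macrophages, was at 170 and 153 FPKM in WT PBS, 75.1 in WT MPTP, 55.9 in KO PBS, 58.6 in the shared KO profile and 57.1 in KO MPTP. Its 2 WT PBS profiles were far above the other 4. Cebpb fell by 1.09 ± 0.09 with MPTP in WT (adjusted p = 0.000953, limma) and was lower in KO under PBS, −1.51 ± 0.09 (adjusted p = 4.15e-05, limma), and over the 6 profiles, −1.12 ± 0.18 (adjusted p = 0.0232, limma). Its interaction was 1.12 ± 0.13 (adjusted p = 0.0192, limma). Rela, an NF-kB subunit, was at 16.2 and 17.1 FPKM in WT PBS, 7.56 in WT MPTP, 15.4 in KO PBS, 16.0 in the shared KO profile and 6.74 in KO MPTP. Rela fell by 1.04 ± 0.09 with MPTP in WT (adjusted p = 0.00097, limma) and by 1.08 ± 0.10 in KO (adjusted p = 0.00217, limma). Cebpb, Rela and Relb have rows off the arithmetic relations, and without those rows neither Cebpb nor Rela passed the filter on low values. The remaining 23 tested inducers were not called in any comparison.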

How the data were processed

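Microglia RNA-seq from 4 groups of mice was analysed from 1 deposited table of 67355 rows and 12 columns. Per the submitters' processing notes, the build was mm9 and the tools included Bowtie 0.12.7, TopHat, Cufflinks and CASAVA 1.5. The deposited values were taken as FPKM, the unit Cufflinks writes, since no header gives one; no source at hand states the depth, the annotation or whether counting used strand. Rows were summed per symbol into 21125 genes, and 1 cell of text was left out.

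A row followed its arithmetic relation when it lay within the rounding of the deposited values (0.0101 FPKM for multiples and 0.00995 for means). Columns that follow a relation carry no error, so 5 separate profiles entered the fit, without the shared KO profile, which entered only the genotype comparison over 6. limma 3.58.1 in R 4.3.3 was run on log2(FPKM + 1) with the trend option and group means, with Benjamini-Hochberg adjustment over 10634 genes and a threshold of 0.05. Its error rests on the WT PBS pair (1 residual and 9.01 prior degrees of freedom), and single profiles are assumed to vary like that pair. Genotype over 6 profiles had 4 residual and 13.7 prior degrees of freedom. The fit was also run on simulated profiles drawn with the spread of the WT PBS pair, with changes put into WT MPTP only. That run cannot check whether single profiles vary like the pair, nor the MPTP comparison in KO.

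All genes that passed the filter are named, with tests for those called or among the 3 highest or lowest differences of a comparison. Below the filter, the rule was the 5 of highest mean and those at 0. Ccr2, Ccr3, Cxcl2, Cxcl3 and Cxcl10 are named outside this rule, as partners of named genes or for their promoter letters. Of the 39 genes, 1 is not reported here by name. Of other lists, called genes or those of highest mean are named. Genes, lists and tests were chosen with earlier results of these data known. Alternatives were other pseudocounts (0.1 and 0.5), no filter or one at 5 FPKM, TMM or quantile scaling, other placements of the shared KO profile, 12 columns as libraries, a replicate block, rows off the relations left out, and profiles left out in turn.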

Additional observations from a re-analysis of the deposited data

Results flagged for a closer look

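The columns that follow an arithmetic relation to other columns were not used in the comparisons. The main Ccl2 row departs from the relation in one of them: it holds 50.12 FPKM in KO MPTP 1, where 1.02 times KO PBS 2 gives 19.92, a departure of 30.2 FPKM. The deposited value lies above the 3 profiles of known PBS treatment and the shared KO profile in that row, and near its 46.2 FPKM in KO MPTP 2, and the cause was not tested.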

How the results depend on the processing

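Fits that leave out a WT PBS or KO PBS profile count the shared KO profile as KO PBS, except over the 6 profiles. For MPTP in WT, the count of chemokine genes called was 0 and became 1 with a filter at 5 FPKM (Ccl2), 1 under TMM scaling (Ccl2) and 1 with a replicate block (Ccl3); leaving out a profile gave 0 to 2. For MPTP in KO the count was 1 (Ccl2) and became 0 with a pseudocount of 0.1 or 0.5, without a filter, under quantile scaling, with the shared KO profile as KO MPTP at the values of KO PBS 2, and with rows off the relations left out; leaving out a profile gave 0 to 1. For genotype under PBS, leaving out a profile gave 0 to 1. The interaction count of 0 became 1 under TMM scaling (Ccl9). With all 12 columns taken as libraries, which counts computed columns as replicates, the counts were 7 for MPTP in WT, 5 for genotype under PBS, 5 under MPTP, 1 for the interaction and 3 over the 6 profiles. The causes were not tested. Same-numbered profiles share only a number: the differences of number 1 and number 2 in WT PBS and KO PBS had r = 0.227 over 10634 genes. The block changed no other count. Of 534 alternative values for 36 named differences, 517 kept their sign and none that was called changed it. Depth is unknown, so what depth limits cannot be given.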
